A study of Homo sapiens with 6 samples.

Results

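ABC transporters are proteins that bind and hydrolyse ATP to move lipids, drugs, bile salts, peptides and cofactors across membranes. The family was taken here as the 45 protein-coding genes of the count table whose symbol is ABC, a letter A to G and a number. These are 45 of 58721 annotated genes, of which 19940 are protein-coding. They fall into 12 ABCA, 9 ABCB, 11 ABCC, 4 ABCD, 1 ABCE, 3 ABCF and 5 ABCG genes. Members were chosen by symbol and gene type alone, so that no measured value entered the rule. The family itself was proposed with the results of these 6 libraries known. Fold changes and adjusted p-values of members are therefore given as a description, with no test of the family as a group.

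The study measured polyadenylated RNA of A375 cells by RNA sequencing; A375 is an established human line from a BRAF-mutant melanoma. There were 3 libraries of cells with a CRISPR guide against SOX10, labelled knockout, and 3 of cells with a guide against mCherry, labelled wild type and called control here. SOX10 is a transcription factor of the neural crest, of melanocytes and of glia, and mCherry is a fluorescent protein gene that human cells lack. Both groups came from the same line in the same serum-containing medium. The labels do not say where the guide cuts or whether the knockout line is 1 clone or a mixed population. Nothing in the labels says that replicates were separate cultures, so the p-values reflect library-to-library spread that may be purely technical.

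The membrane transporters of the family work through a pair of ATP-binding domains that close around ATP and switch a pair of membrane domains between the sides of the membrane. ABCA and ABCG proteins mostly handle lipids, ABCB and ABCC proteins mix drug pumps with organelle transporters and channel subunits, and ABCD proteins sit in peroxisomes and lysosomes. ABCE and ABCF proteins have no membrane domain and act on ribosomes. In melanoma the drug pumps are the members studied most, because they carry several anticancer agents out of cells.

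SOX10 (ENSG00000100146) had 47.2, 47.8 and 41.5 CPM (read counts scaled to library size) in the knockout libraries, against 241, 237 and 223 CPM in the control libraries. The knockout libraries held 17.7% to 20.4% of the control mean, and none overlapped a control library. The log2 fold change of knockout over control was -2.36 (SE 0.08; adjusted p = 1.84e-07 in the edgeR quasi-likelihood test). An exact two-sided permutation test gave p = 0.1, the smallest that the 20 assignments of 3 against 3 libraries allow. Total counts were 70075002 to 78148565 per library, so 3 counts stood at 0.0383 to 0.0417 CPM. Libraries of the same group correlated at 0.9916 or above in log2 CPM, and libraries of different groups at 0.9667 or below. The summed level of 9 melanoma and melanocyte markers was 181 to 192 CPM in knockout and 322 to 336 CPM in control libraries, a list that includes SOX10 itself. Without SOX10 the other 8 summed to 139 to 144 CPM in knockout and 94.9 to 98.9 CPM in control. They went both ways: MITF rose to 138 CPM in knockout, against 57.5 CPM in control, and TYRP1 rose to 0.230 CPM, against 0.0731 CPM. S100B fell to 1.28 CPM in knockout, against 32.9 CPM in control, DCT fell to 0.0657 CPM, against 1.62 CPM, and S100A1 fell to 0.762 CPM, against 3.14 CPM. The pigment genes TYR, PMEL and MLANA averaged 0, 0.370 and 0.770 CPM in knockout, against 0.00463, 0.623 and 0.874 CPM in control. Marker sums for other cell types in knockout and control were 18.8 to 21.1 and 10.6 to 14.3 CPM for 7 fibroblast genes, 231 to 243 and 173 to 181 CPM for 6 keratinocyte and epithelial genes, 3.10 to 3.67 and 6.09 to 8.33 CPM for 5 endothelial genes, and 1.52 to 2.28 and 10.8 to 14.3 CPM for 6 immune genes. Within these lists, KRT18 held most of the epithelial sum (216 CPM in knockout, 155 CPM in control). Of the 5 tested epithelial genes 4 rose, while KRT14 fell to 0.249 CPM in knockout, against 7.16 CPM in control. KDR held most of the endothelial sum in control (0.175 CPM in knockout, 6.32 CPM in control), while PECAM1 and CDH5 rose to 1.13 and 1.96 CPM in knockout, against 0.293 and 0.431 CPM in control. The immune sum was mostly LYZ, and PTPRC averaged 0.0259 CPM in knockout and 0.0634 CPM in control. Their part in the results for ABC genes was not tested. In bulk RNA, fewer cells that express a gene and less RNA per cell cannot be told apart.

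The sequences upstream of a few members are given first, as context for the levels that follow. They were picked after the values were seen, as 2 members that were higher and 2 that were lower in knockout and whose window holds no annotated exon. Each line holds the 250 bases before a RefSeq transcript start on GRCh38.p14, read 5′ to 3′ on the strand of the gene. For ABCG2, which has several starts, the window farthest upstream is shown. Capitals mark a match, on either strand, to letters known from SOX protein binding (ACAAAG, searched together with its variant ACAATG) or from E-box binding (CACGTG, searched together with its variant CATGTG).
ABCG2, chr4:88231627-88231876, minus strand: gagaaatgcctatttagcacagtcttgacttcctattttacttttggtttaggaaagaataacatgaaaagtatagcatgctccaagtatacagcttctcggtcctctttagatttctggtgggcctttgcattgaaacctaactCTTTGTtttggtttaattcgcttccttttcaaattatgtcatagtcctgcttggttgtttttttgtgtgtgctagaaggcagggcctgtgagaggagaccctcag
ABCC2, chr10:99782390-99782639, plus strand: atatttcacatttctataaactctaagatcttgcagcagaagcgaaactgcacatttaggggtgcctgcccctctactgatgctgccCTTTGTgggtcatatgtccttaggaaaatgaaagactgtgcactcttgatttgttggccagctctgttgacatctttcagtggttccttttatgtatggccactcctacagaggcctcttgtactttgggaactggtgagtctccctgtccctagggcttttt
ABCA6, chr17:69141896-69142145, minus strand: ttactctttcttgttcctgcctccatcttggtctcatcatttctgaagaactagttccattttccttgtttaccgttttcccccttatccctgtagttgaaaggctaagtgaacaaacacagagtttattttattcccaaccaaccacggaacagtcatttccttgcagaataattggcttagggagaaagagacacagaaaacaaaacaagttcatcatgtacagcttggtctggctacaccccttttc
ABCA13, chr7:48171208-48171457, plus strand: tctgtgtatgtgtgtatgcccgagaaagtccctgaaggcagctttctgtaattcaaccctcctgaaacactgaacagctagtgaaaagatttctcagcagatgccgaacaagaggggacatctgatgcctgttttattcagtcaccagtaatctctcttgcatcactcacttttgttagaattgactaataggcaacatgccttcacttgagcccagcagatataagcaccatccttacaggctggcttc
The capitals in the ABCG2 window, CTTTGT, are ACAAAG read on the other strand and begin 105 bases before the start. The other ABCG2 windows, not printed, hold neither ACAAAG nor ACAATG, and some of them hold CACGTG, so the match shown depends on the window. Those in the ABCC2 window are the same letters, 163 bases before the start. The ABCA6 and ABCA13 windows printed here hold none of the 4 motifs. ABCA12, also higher in knockout and with windows free of annotated exons, is not printed. A window of ABCA12 holds ACAAAG and CACGTG, and its other window holds none of the 4, so the printed lines are no contrast of higher and lower members. RefSeq windows of 300 bases (250 before and 50 after a start) were matched for 35 of the 45 members, with 53 windows in all. ACAAAG was in 9 of the 53 windows (17%), against 16.1% of 35116 windows of all genes. ACAATG was in 2 (3.77%), against 10.8% of all windows. CACGTG was in 9 (17%), against 7.26%, and CATGTG in 4 (7.55%), against 11.1%. These are matches of letters, counted without regard to overlap between windows of the same gene, and no binding was measured.

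Of the 45 members, 38 had enough counts to be tested. In knockout libraries 5 were higher and 10 lower, so that 15 of 38 (39.5%) passed an adjusted p of 0.05 in edgeR. Of all 19263 genes tested, 28.0% passed, 14.0% as higher and 14.0% as lower. Of the protein-coding genes tested, 33.0% passed. A difference of at least 2-fold was found with the adjusted p for 10 members (26.3%), against 10.8% of all genes and 11.5% of protein-coding genes. Among these 10, ABCA6, ABCA8, ABCB4, ABCG4 and ABCC9 reached the filter on low counts only in the group where they were higher. The 2-fold share of members thus rests partly on that filter, and no excess of the family is read from it. Libraries of the groups did not overlap for 20 of the 38 members (52.6%), against 41.6% of all genes and 46.6% of protein-coding genes. Of the 23 tested members that did not pass, ABCB1 alone had an unadjusted p under 0.05. The median log2 fold change of tested members was -0.03, against -0.02 for all genes, and the median of its absolute value was 0.26, against 0.21.

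The filter on low counts bears on which members could be called. The 7 members not tested were ABCA4, ABCA9, ABCB5, ABCB11, ABCC8, ABCC12 and ABCG8. Of the tested members, 28 reached the filter level of 0.134 CPM in every library. A further 4 (ABCA3, ABCC6, ABCC9 and ABCD2) reached it in all libraries of the knockout group alone, and 5 (ABCA6, ABCA8, ABCB4, ABCG4 and ABCG5) in all of the control group alone. A member could be tested through the libraries of a single group, so the counts above do not describe the 45 genes as a whole. In at least 1 group, 31 members averaged 1 CPM or more, and 26 did so in both.

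**Figure D1:**
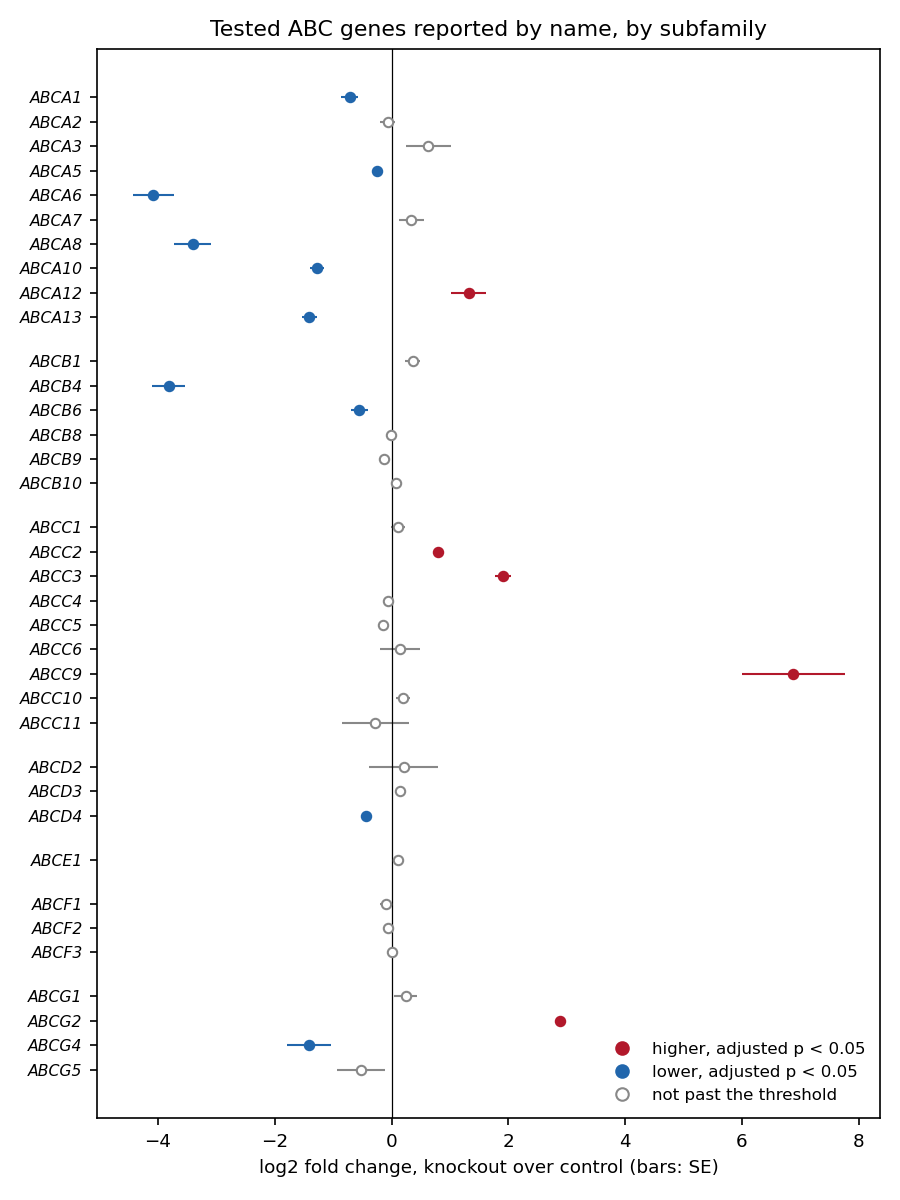
Log2 fold change of knockout over control (horizontal axis) for tested ABC genes reported by name, listed by subfamily; bars are standard errors, red and blue mark genes higher and lower at an adjusted p under 0.05, and open points did not pass. ABCA holds 6 of the 10 lower genes, ABCC holds 3 of the 5 higher genes, and the point for ABCC9 is a fitted value against 0 counts in control and depends on the prior count.

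Drug and organic anion exporters gave most of the higher calls. Of 12 such genes, 10 were tested, 3 were higher and none was lower in edgeR, so that 30% were called, near the 28.0% of all genes and 33.0% of protein-coding genes. They are pumps of the ABCB, ABCC and ABCG subfamilies that move drugs, conjugates and organic anions out of cells.

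ABCG2 (ENSG00000118777; GRCh38 chromosome 4, 88090264 to 88231322, minus strand), known as the breast cancer resistance protein, exports many drugs, urate and porphyrins. It had 80.1, 83.7 and 91.5 CPM in knockout libraries, against 11.2, 11.2 and 12.4 CPM in control libraries. Each knockout library lay far above each control library. The mean was 7.34-fold higher in knockout (85.1 ± 5.84 CPM, against 11.6 ± 0.673 CPM in control; SD, n = 3 each). The log2 fold change was 2.88 (SE 0.08; edgeR adjusted p = 1.03e-07), and across 13 alternative fits it lay between 2.82 and 2.93. Per kb of exons, ABCG2 ranked 4 among the 45 members in knockout, against rank 14 in control. It held 7.77% of the summed CPM per kb of the family in knockout and 1.19% in control. The nearest expressed genes on either side, picked after the values were seen, had log2 fold changes of 0.13 (PKD2, adjusted p = 0.305) and 0.30 (PPM1K, adjusted p = 0.0101) in edgeR.

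ABCC3 (ENSG00000108846; chromosome 17, 50634777 to 50692252, plus strand) encodes MRP3, which exports glucuronide conjugates and bile salts across the basolateral membrane. It had 14.2, 14.3 and 11.2 CPM in knockout libraries, against 4.14, 3.29 and 3.12 CPM in control libraries. The groups did not overlap, and the knockout mean was 3.77-fold higher (log2 fold change 1.91 with SE 0.14 and edgeR adjusted p = 1.67e-05). Both neighbours of ABCC3 missed the threshold, SPATA20 with a log2 fold change of 0.21 and ANKRD40 with -0.16 (edgeR adjusted p of 0.0632 and 0.0752). ABCC2 (ENSG00000023839; chromosome 10, 99782640 to 99852594, plus strand) encodes MRP2, the apical exporter of conjugates such as bilirubin glucuronide. It had 120, 114 and 111 CPM in knockout libraries, against 67.7, 69.0 and 63.8 CPM in control libraries. Again the lowest knockout library was above the highest control library, and the mean was 1.72-fold higher in knockout (log2 fold change 0.79 with SE 0.06; adjusted p = 2.54e-05 in edgeR). ABCC2 was the most abundant ABCC gene per kb of exons in knockout, with 14.7 CPM per kb, against 8.53 CPM per kb in control. In control, ABCC4 with 10.1 CPM per kb stood above it, against 9.61 CPM per kb in knockout.

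The other drug and anion pumps did not pass in the main edgeR fit. ABCB1 (ENSG00000085563), the P-glycoprotein of multidrug resistance, averaged 13.1 ± 1.28 CPM in knockout and 10.2 ± 1.74 CPM in control. Its log2 fold change was 0.36, with an edgeR adjusted p of 0.0782. It passed in DESeq2 (adjusted p = 0.0494) and in edgeR without control replicate 1 (adjusted p = 0.0356), and its groups did not overlap. In edgeR with a replicate block ABCB1 also passed (adjusted p = 0.000129), as did ABCC1 and ABCC5. ABCB1 shares 85776 bases with RUNDC3B on the opposite strand, a gene that averaged 0.875 CPM in knockout and 1.27 CPM in control. ABCC1 (MRP1) averaged 62.0 CPM in knockout and 57.4 CPM in control, and ABCC4 (MRP4, which also exports cyclic nucleotides) 83.0 and 86.9 CPM. ABCC5 (MRP5) averaged 28.9 CPM in knockout and 32.1 CPM in control, and ABCC10 7.20 and 6.30 CPM. ABCC6, whose loss causes pseudoxanthoma elasticum, averaged 0.153 CPM in knockout and 0.137 CPM in control, and has near-identical pseudogene copies that can take part of its reads. ABCC11, the transporter known from the earwax trait, averaged 0.138 CPM in knockout and 0.169 CPM in control and overlaps LONP2 on the opposite strand. Of the 2 not tested, ABCC12 averaged 0.0494 CPM in knockout and 0.0320 CPM in control. ABCB5, which marks a subset of cells in other melanomas, had 0, 0 and 1 counts in knockout libraries, against 1, 12 and 1 counts in control libraries. A single control library held nearly all ABCB5 counts, and the levels in the other 5 libraries were below 3 counts.

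**Figure D2:**
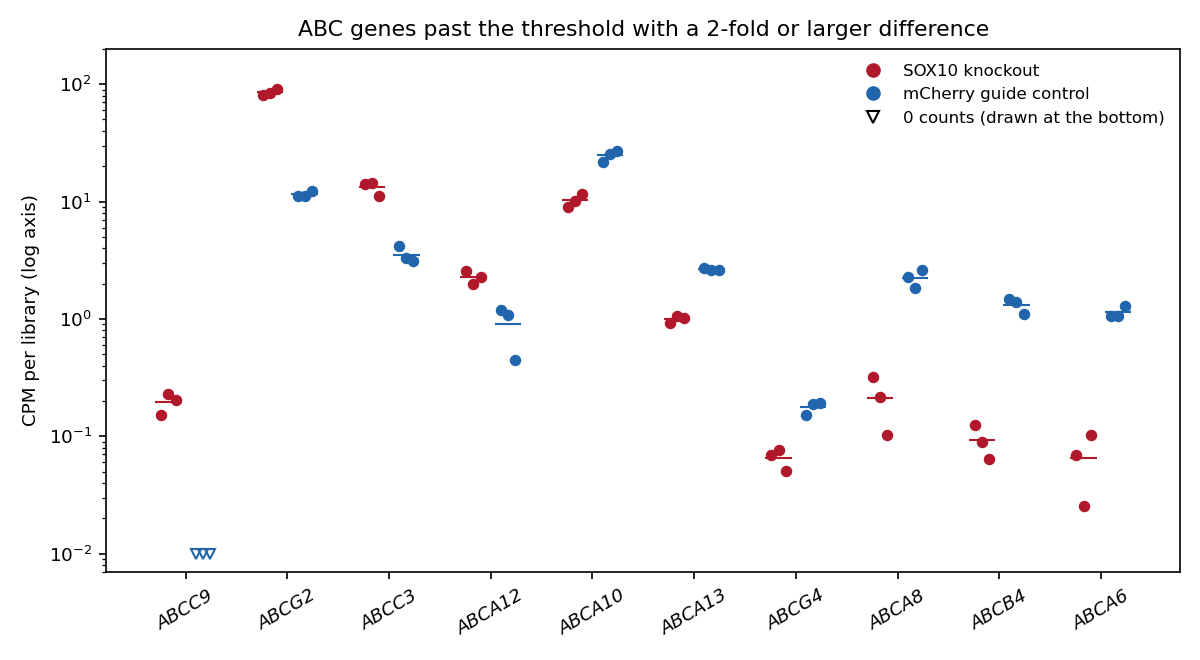
CPM per library (log axis) for the 10 ABC genes past an adjusted p of 0.05 with a 2-fold or larger difference, ordered by log2 fold change; points are libraries, horizontal lines are group means over 3 libraries, red is SOX10 knockout, blue is control, and triangles are libraries with 0 counts. The groups do not overlap for any of these 10 genes, which follows largely from picking them by call and size of difference. ABCA6, ABCA8, ABCB4 and ABCG4 reached the low-count filter in control libraries alone, and ABCC9 in knockout libraries alone. ABCG2 (80.1 to 91.5 CPM in knockout) and ABCA10 (21.9 to 27.2 CPM in control) are the most abundant in their groups.

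The potassium channel subunits ABCC8 and ABCC9 encode SUR1 and SUR2, which do not pump but regulate ATP-sensitive potassium channels. ABCC9 (ENSG00000069431; chromosome 12, 21797401 to 21942529, minus strand) had 11, 18 and 16 counts in knockout libraries, against 0 counts in each control library. This was 0.153, 0.230 and 0.204 CPM in knockout. Set against a floor of 3 counts per library, 0.0417 CPM, the knockout mean of 0.196 CPM was at least 4.69-fold higher (edgeR adjusted p = 0.00157). The gene was near the detection limit in both groups. ABCC8 averaged 0.0135 CPM in each group and was not tested. The channel pore genes KCNJ8 and KCNJ11 and the potassium inward rectifier gene KCNJ1 were too low to be tested.

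Lower calls were most frequent among ABCA genes, of which 10 of 12 were tested, 6 fell and 1 rose. A run of 5 ABCA genes lies within a stretch of chromosome 17 (68867292 to 69327244, all on the minus strand) in the order ABCA8, ABCA9, ABCA6, ABCA10 and ABCA5. They are close relatives of each other and are thought to act in lipid handling, though their substrates are poorly known. Of the 5, 4 were tested and each of those fell, ABCA5 by little and with a call lost in most alternative fits, as given below. ABCA6 and ABCA8 reached the low-count filter through the control libraries alone, where they were higher.

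ABCA6 (ENSG00000154262; 69078702 to 69141888) had 0.0695, 0.0255 and 0.102 CPM in knockout libraries, against 1.06, 1.05 and 1.30 CPM in control libraries. In counts these were 5, 2 and 8 in knockout, against 76, 78 and 94 in control. The mean was 17.3-fold lower in knockout (log2 fold change -4.08 with SE 0.35; adjusted p = 4.66e-05 in edgeR), which left the knockout libraries close to the level of 3 counts. ABCA8 (ENSG00000141338; 68867292 to 68955392), which has been linked to lipid export and to sphingomyelin in glial cells, had 0.320, 0.217 and 0.102 CPM in knockout libraries, against 2.29, 1.85 and 2.61 CPM in control libraries. No knockout library came near a control library, and the mean was 10.6-fold lower in knockout (log2 fold change -3.41 with SE 0.31; adjusted p = 6.85e-05 in edgeR). ABCA9 had 0, 1 and 1 counts in knockout libraries, against 4, 8 and 1 counts in control libraries, and was not tested.

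ABCA10 (ENSG00000154263; 69147214 to 69244846) was the most abundant ABCA gene per kb of exons in both groups. It had 9.00, 10.1 and 11.7 CPM in knockout libraries, against 21.9, 25.3 and 27.2 CPM in control libraries. The groups were well apart, and the mean was 2.42-fold lower in knockout (log2 fold change -1.27 with SE 0.12; adjusted p = 6.84e-05 in edgeR). ABCA5 (ENSG00000154265; 69244311 to 69327244), a lysosomal and late endosomal member, averaged 10.3 ± 0.553 CPM in knockout and 12.3 ± 0.295 CPM in control. Its log2 fold change was -0.25 (SE 0.07; edgeR adjusted p = 0.0355). This call was lost in DESeq2, with scaling by total counts, without the filter, and when any of control replicates 1 and 2 and knockout replicates 1, 2 and 3 was left out, with adjusted p between 0.0619 and 0.117 in these 8 fits. ABCA5 and ABCA10 share 536 bases on the same strand, so part of their reads may be assigned to either or dropped. Beyond the run, picked after the values were seen, the nearest tested protein-coding genes were also lower. FAM20A lies 266 kb from the run and MAP2K6 87.5 kb from it, and whether their falls are linked to those of the run was not tested. FAM20A had a log2 fold change of -0.93 (edgeR adjusted p = 0.0433) at 0.223 CPM in knockout and 0.425 CPM in control, and MAP2K6 had -0.45 (edgeR adjusted p = 0.000887) at 26.6 and 36.5 CPM.

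**Figure D3:**
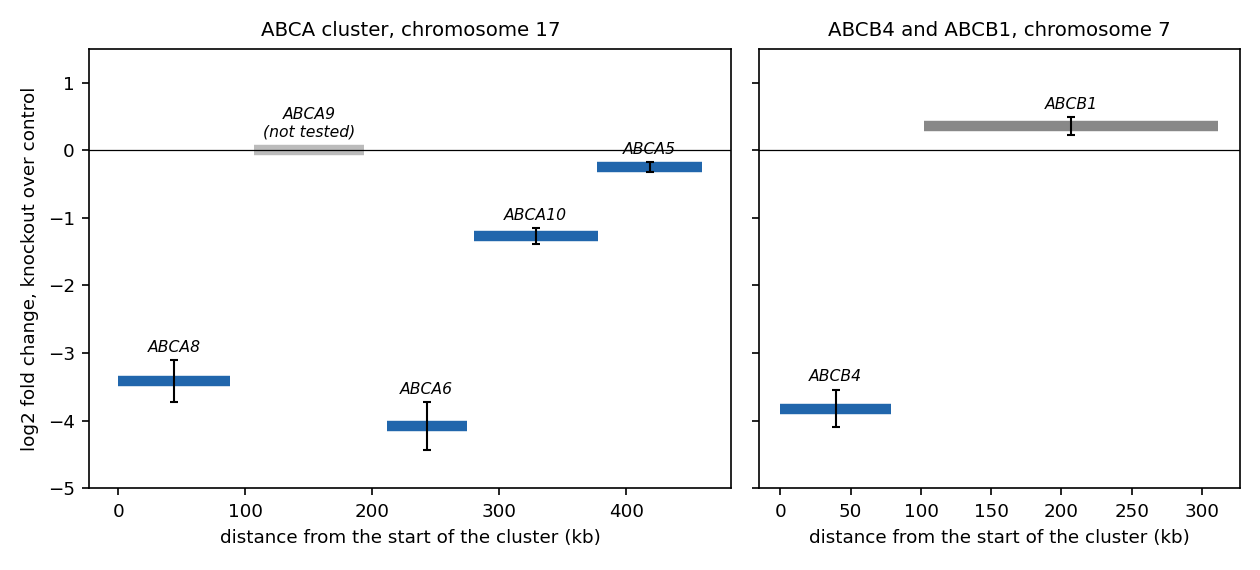
Log2 fold change of knockout over control (vertical axis) by distance along the cluster in kb for 2 groups of neighbouring ABC genes; bars span each gene, error bars are standard errors, blue marks genes lower at an adjusted p under 0.05, dark grey a gene that did not pass, and light grey at 0 a gene that was not tested. On chromosome 17 the values run from -4.08 (ABCA6) to -0.25 (ABCA5), and on chromosome 7 ABCB4 (-3.82) lies beside ABCB1 (0.36).

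Other ABCA genes serve lipid transport in particular cells or organelles. ABCA13 (ENSG00000179869; chromosome 7, 48171458 to 48647496, plus strand), a very large protein of intracellular vesicles, had 0.917, 1.05 and 1.01 CPM in knockout libraries, against 2.74, 2.60 and 2.59 CPM in control libraries. The libraries of each group were close together and far from the other group, and the mean was 2.67-fold lower in knockout (log2 fold change -1.41 with SE 0.13; adjusted p = 6.13e-05 in edgeR). ABCA12 (ENSG00000144452; chromosome 2, 214931542 to 215138428, minus strand), which loads ceramides into the lamellar granules of keratinocytes, had 2.56, 2.00 and 2.26 CPM in knockout libraries, against 1.20, 1.08 and 0.444 CPM in control libraries. Control replicate 3 was lowest, and no control library reached the knockout group. The mean was 2.51-fold higher in knockout (log2 fold change 1.32 with SE 0.30; adjusted p = 0.0115 in edgeR), and ABCA12 was the single ABCA gene that rose. Of 5 tested keratinocyte and epithelial markers 4 rose and 1, KRT14, fell, and the marker sum that was higher in knockout was mostly KRT18. Whether these bear on ABCA12 was not tested. ABCA2, a lysosomal lipid transporter abundant in oligodendrocytes, averaged 13.5 CPM in knockout and 14.2 CPM in control. ABCA3, which fills surfactant bodies in lung, averaged 0.431 CPM in knockout and 0.278 CPM in control. ABCA4, the retinal flippase of photoreceptors, averaged 0.0348 CPM in knockout and 0.00926 CPM in control, at or below 3 counts in most libraries, and was not tested.

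Cellular sterol and phospholipid exporters, of which all 4 were tested, had 2 lower calls, ABCA1 and ABCG4, and none higher in edgeR. Of all genes tested, 28.0% were called, 14.0% as lower. ABCG4 reached the low-count filter in control libraries alone and lost its call in most alternative fits, as given below. The count of lower calls therefore rests largely on ABCA1. ABCA1 (ENSG00000165029; chromosome 9), which loads cholesterol and phospholipid onto apolipoprotein A-I, averaged 11.5 ± 1.26 CPM in knockout and 19.0 ± 3.23 CPM in control. The mean was 1.65-fold lower in knockout (log2 fold change -0.72 with SE 0.14; adjusted p = 0.00441 in edgeR), and the groups did not overlap. ABCG4 (ENSG00000172350; chromosome 11, 119149012 to 119162653, plus strand), a sterol exporter of brain, had 0.0695, 0.0766 and 0.0510 CPM in knockout libraries, against 0.153, 0.189 and 0.194 CPM in control libraries. Behind these levels stood 5, 6 and 4 counts in knockout and 11, 14 and 14 counts in control. Its log2 fold change was -1.42 (SE 0.38; edgeR adjusted p = 0.0227). The call was lost in DESeq2 (adjusted p = 0.12), without the filter on low counts (edgeR adjusted p = 0.0821) and when any 1 of the 6 libraries was left out. ABCG1, which exports cholesterol to mature lipoproteins, averaged 1.40 CPM in knockout and 1.19 CPM in control. ABCA7, an ABCA1 relative studied in Alzheimer's disease, averaged 1.91 CPM in knockout and 1.51 CPM in control. Neither passed, with log2 fold changes of 0.24 and 0.34. The sterol exporters of gut and liver were near the detection limit: ABCG5 averaged 0.141 CPM in knockout and 0.201 CPM in control and did not pass, and ABCG8 averaged 0.0220 and 0.0138 CPM and was not tested. ABCG5 and ABCG8 overlap by 6924 bases on opposite strands.

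The bile lipid exporter ABCB4 (ENSG00000005471; chromosome 7, 87401697 to 87480435, minus strand) flips phosphatidylcholine into bile and is the closest relative of ABCB1. It had 0.125, 0.0894 and 0.0638 CPM in knockout libraries, against 1.47, 1.39 and 1.11 CPM in control libraries. In counts this was 9, 7 and 5 in knockout, against 106, 103 and 80 in control, with no overlap. The mean was 14.3-fold lower in knockout (log2 fold change -3.82 with SE 0.28; adjusted p = 1.69e-05 in edgeR). Its neighbour ABCB1, less than 100 kb away on the same strand, had a positive log2 fold change that missed the threshold, as given above. On the other side CROT, picked after the values were seen and 1902 bases away, rose to 22.9 ± 1.45 CPM in knockout, against 16.8 ± 2.22 CPM in control (log2 fold change 0.44; edgeR adjusted p = 0.0127). ABCB11, the bile salt export pump of liver, had 0, 1 and 1 counts in knockout libraries and 0 in control libraries, and was not tested.

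Of 9 members known from mitochondria, lysosomes and peroxisomes, 2 were lower, ABCB6 and ABCD4, and none was higher in edgeR, so that 22.2% were called, against 28.0% of all genes. ABCB6 (ENSG00000115657), a porphyrin transporter of mitochondria and of lysosome-related organelles, including melanosomes, averaged 1.18 ± 0.129 CPM in knockout and 1.73 ± 0.0683 CPM in control. It was 1.47-fold lower in knockout (log2 fold change -0.55 with SE 0.14; adjusted p = 0.0216 in edgeR). The call was lost when control replicate 1, control replicate 2, knockout replicate 1 or knockout replicate 2 was left out, with edgeR adjusted p between 0.0607 and 0.0962. ABCB6 lies almost wholly within another annotated protein-coding gene on the same strand, so its count is uncertain; ABCF2 is in the same position. ABCB10 (ENSG00000135776; chromosome 1), which supports heme synthesis in mitochondria, was the most abundant ABCB gene per kb of exons. It had 78.9, 78.3 and 73.8 CPM in knockout libraries, against 73.7, 73.4 and 71.2 CPM in control libraries, a log2 fold change of 0.08 that did not pass (edgeR adjusted p = 0.351). The knockout libraries all lay above the control libraries, the nearest being 73.8 CPM in knockout and 73.7 CPM in control. ABCB8, part of a mitochondrial potassium channel, averaged 13.8 CPM in knockout and 13.9 CPM in control. ABCB9, the lysosomal peptide transporter, averaged 16.7 CPM in knockout and 18.3 CPM in control.

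ABCD4 (ENSG00000119688; chromosome 14), which releases vitamin B12 from lysosomes, averaged 10.6 ± 0.760 CPM in knockout and 14.4 ± 1.41 CPM in control. The groups did not overlap, and the mean was 1.35-fold lower in knockout (log2 fold change -0.43 with SE 0.09; adjusted p = 0.00956 in edgeR). Without knockout replicate 2 its edgeR adjusted p was 0.0535. The peroxisomal fatty acid importers ABCD2 and ABCD3 did not pass in the main edgeR fit, DESeq2 or limma-voom. Neither had an unadjusted p under 0.05 in the main edgeR fit. In edgeR with a replicate block ABCD3 passed (adjusted p = 0.000187) and ABCD2 did not. ABCD3 (ENSG00000117528; chromosome 1), which brings in branched-chain and bile acid precursors, was the most abundant ABCD gene per kb of exons. It had 99.4, 103 and 108 CPM in knockout libraries, against 88.7, 91.8 and 100 CPM in control libraries, and the groups overlapped (log2 fold change 0.15; edgeR adjusted p = 0.161). ABCD2 averaged 0.197 CPM in knockout and 0.169 CPM in control. ABCB10 and ABCF2 have pseudogene copies in the genome, so that part of their reads may be assigned elsewhere.

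The members without membrane domains include the most abundant ones. None of the 4 passed in the main edgeR fit, DESeq2 or limma-voom, and none had an unadjusted p under 0.05 in the main edgeR fit. In edgeR with a replicate block, ABCE1 (adjusted p = 0.00161) and ABCF1 (adjusted p = 0.00785) passed, and ABCF2 and ABCF3 did not. ABCE1 (ENSG00000164163; chromosome 4), which splits ribosomes after termination, had 356, 380 and 417 CPM in knockout libraries, against 340, 336 and 390 CPM in control libraries. The groups overlapped, and its log2 fold change was 0.11 (SE 0.08; edgeR adjusted p = 0.381). It overlaps OTUD4 and ANAPC10 on the opposite strand. ABCF1 (ENSG00000204574; chromosome 6), an initiation factor partner, had 161, 148 and 133 CPM in knockout libraries, against 173, 162 and 137 CPM in control libraries, again with overlap (log2 fold change -0.10 with SE 0.10; adjusted p = 0.56 in edgeR). ABCF2 averaged 32.3 CPM in knockout and 33.6 CPM in control, and ABCF3, whose yeast relative acts in the pathway of the stress sensor GCN2, 31.2 and 31.1 CPM. Per kb of exons ABCE1 stood at 61.3 CPM in knockout and 56.7 CPM in control, and ABCF1 at 32.6 and 34.8 CPM. They held 28.2% and 15.0% of the family's summed CPM per kb in knockout, against 29.3% and 18.0% in control.

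**Figure D4:**
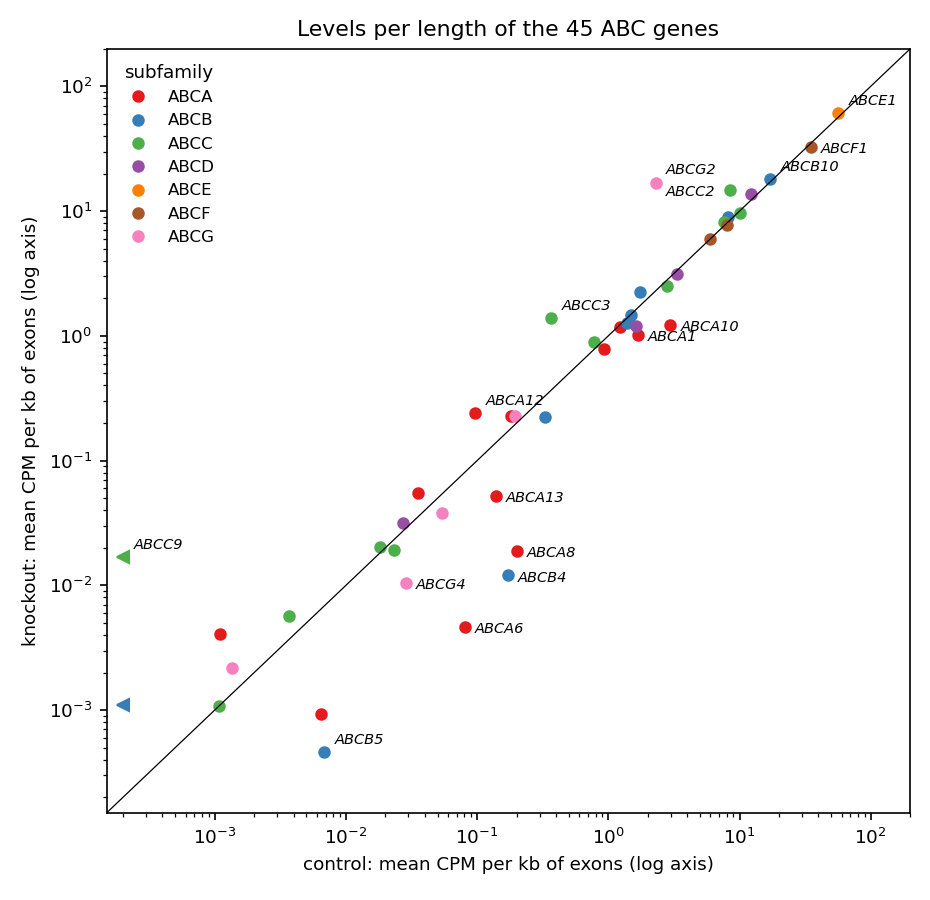
Mean CPM per kb of exons in knockout (vertical, log axis) and in control (horizontal, log axis) for the 45 ABC genes, coloured by subfamily; the line marks equal levels and triangles at the left edge are genes with 0 counts in control. Most genes above 1 CPM per kb lie close to the line, ABCG2 (16.9 in knockout, 2.30 in control) stands above it, and ABCA6, ABCA8 and ABCB4 lie below it at levels under 1 CPM per kb in both groups.

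Levels per kb of exons gave the order of members within a group. In knockout the order was ABCE1, ABCF1, ABCB10, ABCG2, ABCC2 and ABCD3, at 61.3, 32.6, 18.1, 16.9, 14.7 and 13.6 CPM per kb. In control it was ABCE1, ABCF1, ABCB10, ABCD3, ABCC4 and ABCC2, at 56.7, 34.8, 17.1, 12.3, 10.1 and 8.53 CPM per kb. The first 3 were shared.

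Genes that work beside the transporters were counted from lists with the same test, as a description. Of 22 tested genes of sterol sensing and lipoprotein handling, 4 rose and 9 fell. The share called was 59.1%, against 28.0% of all genes and 33.0% of protein-coding genes. The median log2 fold change was -0.18, against -0.02 for all genes. RXRG, a nuclear receptor partner of the liver X receptors, fell to 0.215 ± 0.0440 CPM in knockout, against 16.0 ± 0.909 CPM in control (edgeR adjusted p = 4.40e-08). APOD, a lipid-carrying apolipoprotein, fell to 0.248 ± 0.0738 CPM in knockout, against 2.14 ± 0.218 CPM in control (edgeR adjusted p = 1.41e-05). NR1H3, the liver X receptor alpha that activates ABCA1 and ABCG1, rose to 12.8 ± 0.611 CPM in knockout, against 7.30 ± 0.790 CPM in control (edgeR adjusted p = 0.000283). ABCA1 and NR1H3 had fold changes of opposite sign.

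Of 19 tested xenobiotic sensors and conjugating enzymes, 4 rose and 4 fell, with a median log2 fold change of 0.17. The share called was 42.1%, against 28.0% of all genes and 33.0% of protein-coding genes. MGST1, a membrane glutathione transferase, rose to 216 CPM in knockout, against 89.7 CPM in control (edgeR adjusted p = 3.15e-05). SULT1A1, a sulfotransferase, rose to 1.68 CPM in knockout, against 0.904 CPM in control, and NQO1, a quinone reductase, fell to 434 CPM in knockout, against 620 CPM in control. Of 17 tested mitochondrial heme and iron-sulfur genes, 4 rose and 1 fell, with a median of 0.10. The share called was 29.4%, near the 28.0% of all genes and 33.0% of protein-coding genes. HMOX1, which degrades heme, rose to 34.2 ± 1.19 CPM in knockout, against 15.6 ± 1.09 CPM in control (edgeR adjusted p = 7.75e-06). CPOX, a late enzyme of heme synthesis, rose to 108 CPM in knockout, against 77.4 CPM in control, and ALAD, an early one, fell to 29.8 CPM in knockout, against 35.4 CPM in control.

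Of 20 tested peroxisomal import and beta-oxidation genes, 4 rose and 3 fell, with a median log2 fold change of 0.03. The share called was 35.0%, against 28.0% of all genes and 33.0% of protein-coding genes. AMACR, a racemase for branched-chain acids, fell to 1.70 CPM in knockout, against 4.25 CPM in control, and ACBD5, a tether of peroxisomes, rose to 90.7 CPM in knockout, against 73.2 CPM in control. Of 10 tested vitamin B12 genes none rose and 2 fell in edgeR (20% called, against 28.0% of all genes), with a median of -0.11. LMBRD1, the lysosomal partner of ABCD4, fell to 17.1 ± 1.81 CPM in knockout, against 21.9 ± 2.41 CPM in control (edgeR adjusted p = 0.0365), and MMAB, which makes adenosylcobalamin, fell to 16.9 CPM in knockout, against 20.8 CPM in control. Of 11 tested ribosome rescue and stress sensing partners 1 rose and 1 fell (18.2% called, against 28.0% of all genes), with a median of 0.01. The kinase EIF2AK4 (GCN2) fell to 122 CPM in knockout, against 162 CPM in control, and PELO, which recruits ABCE1 to stalled ribosomes, rose to 83.8 CPM in knockout, against 72.1 CPM in control. Among ABC proteins with other symbols, the antigen peptide transporter genes TAP1 and TAP2 averaged 18.3 and 25.1 CPM in knockout, against 18.2 and 21.7 CPM in control, and did not pass (edgeR adjusted p of 0.972 and 0.191). CFTR, a chloride channel of this family, averaged 0 CPM in knockout and 0.0271 CPM in control and was not tested.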

How the data were processed

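RNA-seq counts per gene from 6 libraries were analysed. The authors deposited raw read counts, not normalized, made with HISAT2 and HTSeq on hg38, per the submitters' processing notes. Per the labels' protocols the mRNA kit was stranded. The sources used here give neither tool versions nor the strand setting of the counting. Without strand, overlapping genes on opposite strands cannot be told apart, and reads of near-identical copies may be lost. All 58721 identifiers matched GENCODE release 29, which gave gene types, exon lengths and coordinates (GRCh38).

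Counts were tested in edgeR 4.0.16 (R 4.3.3) over all 6 libraries with no covariate: filterByExpr, TMM scaling, two-sided quasi-likelihood test, Benjamini-Hochberg adjustment over 19263 genes and a threshold of 0.05. An edgeR result with no other setting named comes from that main fit, which has no replicate block. CPM uses TMM-scaled library sizes, and the floor of 3 counts covers counting error only. Levels between genes were compared as CPM per kb of exons. The procedure was tested on simulated counts that held no shared replicate effect, so that test does not bear on such an effect. Members on a chromosome with at most 100 kb between them counted as neighbours. Promoter windows of 300 bases came from RefSeq (GRCh38.p14). Other tools were Python 3.11.15, pandas 2.3.3, scipy 1.17.1 and matplotlib 3.10.9.

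Values per library were given for members past the threshold with a log2 fold change of at least 1.0 in size and for the most abundant tested member of each subfamily, other members by group means, and, in each list, up to 2 genes with the smallest p past the threshold plus 1 in the other direction. Some members and a marker gene enter the counts but are not reported here by name. The members and the 8 gene lists were chosen with earlier results of these data known. Alternatives were DESeq2 1.42.0, limma-voom (limma 3.58.1), other scalings and filters, a replicate block and leaving out each library. No library duplicated another: replicates differed beyond sampling noise. Deviation correlations of same-numbered libraries were 0.302, -0.004 and 0.314 for replicates 1, 2 and 3. The labels do not say whether replicate numbers mark a shared batch, and the main fit does not use them.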

Additional observations from a re-analysis of the deposited data

How the results depend on the processing

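Over 13 alternative fits no member changed sign with a call, and 455 single-gene values kept their side of the threshold, while 21 lost and 11 gained a call. The higher calls of ABCG2, ABCC2, ABCC3 and ABCA12 and the lower calls of ABCA1, ABCA6, ABCA8, ABCA10, ABCA13 and ABCB4 held in each fit; ABCC9 held in 12 and, like ABCG4, was not tested at a filter of 1 CPM in 3 libraries. Libraries left out in turn gave 6 to 9 lower ABC calls and 1794 to 2958 lower calls over all genes; the lowest of each came without knockout replicate 2, and the cause was not tested. With a replicate block, 24 of 38 tested ABC genes passed (11 higher, 13 lower). So did 9813 of all 19263 genes tested (4637 higher, 5176 lower), so calls rose with the block over all genes and not for members alone. Members gained with the block included ABCB1, ABCB9, ABCB10, ABCC1, ABCC5, ABCD3, ABCE1 and ABCF1, and none was lost. Same-numbered libraries of replicates 1 and 3 deviated together (correlations of 0.302 and 0.314). Knockout replicate 1 against control replicate 3 gave -0.332, and knockout replicate 3 against control replicate 1 gave -0.284. Knockout replicate 2 had correlations between -0.037 and 0.038 with the control libraries. A shared replicate effect is therefore possible, and the fit without the block leaves it in the spread. No scaling moved the median log2 fold change of all genes by as much as 0.1. Members under about 0.1 CPM rest on a few counts per library, and differences among them were not detectable at this depth unless called.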
